A study of Homo sapiens with 3 samples.

Results

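The genes described here encode actin and small or rod-shaped proteins that bind it: the cytoplasmic actins ACTB and ACTG1, cofilin (CFL1), profilin (PFN1), thymosin beta-10 (TMSB10), the tropomyosins TPM1, TPM3 and TPM4, and the alpha-actinins ACTN1 and ACTN4. Their members are the C-to-U editing clusters whose deposited gene name is exactly one of these 10 symbols. This gave 81 clusters of 40843 in 3 biological replicates, with 29, 28 and 24 clusters of 14295, 15181 and 11367 in replicates 1, 2 and 3. None of the 81 carries a further gene name, although 6.27% of all clusters do.

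The replicates form 1 group, HEK293T cells (labelled HEK293XT, genotype WT), a human embryonic kidney line, in which doxycycline induced a fusion of RBFOX2 and APOBEC1 for 72 h. In the labels the treatment is transient transfection, while the growth protocol speaks of stable lines. APOBEC1 converts C to U in RNA, and RBFOX2, a splicing regulator, brings it to the transcripts it binds, an approach called STAMP. No control cells enter the comparisons, so editing by the fusion cannot be told apart from a background level, and values are compared between replicates, genes and clusters.

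Actin monomers assemble into filaments that give a cell its shape and drive its movement. Profilin hands monomers to growing filament ends, thymosins hold monomers in reserve, and cofilin severs and takes apart old filaments. Tropomyosins lie along filaments and steady them, and alpha-actinins tie filaments into bundles. The mRNAs of the cytoplasmic actins, cofilin and profilin are among the abundant mRNAs of most growing cells.

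The deposited unit is the cluster, a stretch in which windows of 30 bases passed the authors' filter for editing, merged within 15 bases. Its edit fraction divides the edited bases by the covered C bases, counted over every read of the cluster, and the pooled edit fraction of a gene sums both counts over the gene's clusters. Reads inside clusters numbered 1637592, 1731304 and 1104249 over the whole of replicates 1, 2 and 3, of which the 10 genes held 1.39%, 1.17% and 1.21%. Only called clusters were analysed here, so a gene without a cluster is not shown to be unedited. Wilson 95% intervals are given for edit fractions. They cover counting error only, since PCR copies were not marked by molecular identifiers and they treat edited bases on 1 read as separate, which makes them too narrow where a read carries several.

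Editing was called in each of the 10 genes, and in 8 of them in every replicate. Of all 9904 gene names with a cluster, 37.9% have clusters in all 3 replicates. ACTN1 had no cluster in replicate 1, and ACTN4 had none in replicate 3. A replicate had 27 ± 2.65 clusters in these genes (SD, n = 3), or 0.203%, 0.184% and 0.211% of all clusters of replicates 1, 2 and 3. They held 1.17%, 0.949% and 1.22% of all edited bases and 2.17%, 1.93% and 2.22% of all covered C bases. Their share of covered C bases was above their share of edited bases in every replicate.

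Most of this editing lay in 4 genes. ACTB, CFL1, PFN1 and TMSB10 held 88.0%, 89.7% and 93.7% of the 10 genes' edited bases in replicates 1, 2 and 3. ACTB had 356, 282 and 252 edited bases, CFL1 340, 251 and 274, PFN1 222, 290 and 221, and TMSB10 123, 127 and 135. By edited bases, ACTB ranked 20, 25 and 16 among all genes in replicates 1, 2 and 3, and CFL1 ranked 21, 29 and 14. ACTG1, the other cytoplasmic actin, ranked 1060, 636 and 1287. TPM1 and the alpha-actinins had at most 12 edited bases in any replicate.

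The pooled edit fraction of the 10 genes together was 0.505%, 0.460% and 0.548% in replicates 1, 2 and 3, with a mean of 0.505% ± 0.0441 (SD, n = 3). In all other clusters it was 0.949%, 0.944% and 1.01%. Depth differs between these sets, with a median mean read depth of 207, 242 and 190 in the 10 genes against 25.1, 24.6 and 21.0 elsewhere. A mean depth of at least 50 was reached by 23 of 29, 23 of 28 and 17 of 24 member clusters, against 29.1%, 27.9% and 24.6% of all clusters. Among clusters past this depth, the median edit fraction was 0.582%, 0.516% and 0.678% in the 10 genes and 0.775%, 0.794% and 0.783% elsewhere. The difference was -0.192 percentage points ± 0.0863 (SD, n = 3) and negative in each replicate. An exact two-sided sign-flip permutation test of the 3 differences gave p = 0.25, the smallest p that 3 replicates allow. Past a depth of 50 the 10 genes were still deeper, at a median of 312, 412 and 377 against 91.8, 91.6 and 88.4. With a limit of 100 the difference was -0.0503 percentage points, with replicate 3 at 0.0300 percentage points, so the difference was smaller at the higher limit, and the part of depth in the rest was not tested.

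**Figure D1:**
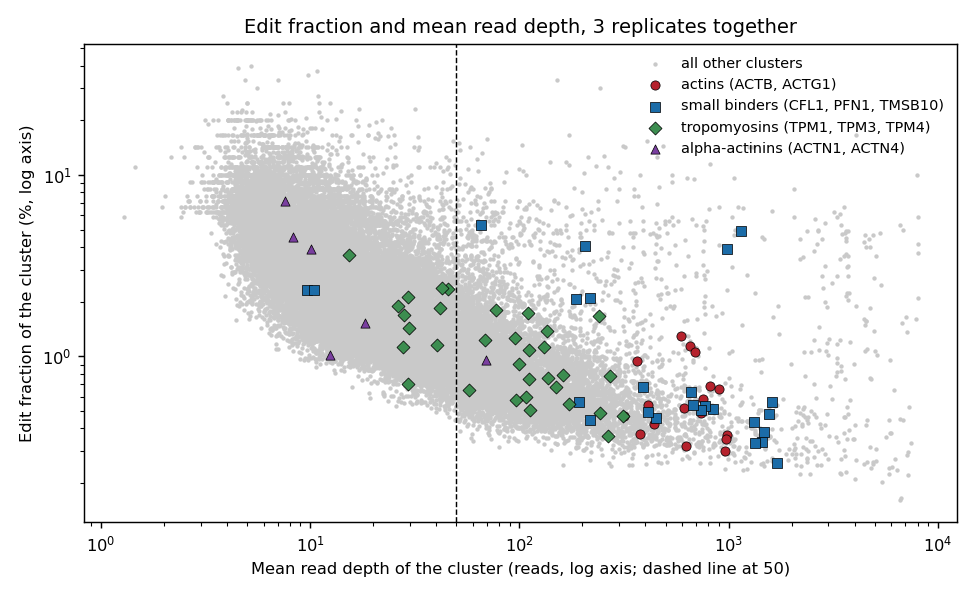
Edit fraction of each cluster (percent, log axis) against its mean read depth (reads, log axis), with 1 point per cluster and the 3 replicates together. Grey points are all clusters of other genes and coloured points the 81 clusters of the 10 genes, of which 63 lie at or right of the dashed line at a depth of 50 and those of ACTB between 315 and 979.

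Ordered by the mean of their pooled edit fraction over replicates, the 8 genes called in every replicate were ACTG1 at 0.352% ± 0.0621 (SD, n = 3), PFN1 at 0.382% ± 0.0642, TMSB10 at 0.448% ± 0.0449, CFL1 at 0.542% ± 0.0456, ACTB at 0.703% ± 0.236, TPM3 at 0.812% ± 0.366, TPM4 at 0.903% ± 0.279 and TPM1 at 1.45% ± 0.212. Of the 7 neighbouring pairs in this order, TMSB10 and CFL1, and TPM4 and TPM1, have ranges over replicates that do not overlap. TPM4 reaches 1.22% and TPM1 starts at 1.24%, both in replicate 3. These values rest on 7 and 9 edited bases, and their Wilson intervals, 0.594 to 2.50 and 0.656 to 2.35, overlap. The ranges of the other 5 pairs overlap, and the exact sign-flip test gave p from 0.25 to 0.75 over the 7 pairs, before any adjustment. The pairs were formed from the order of the same values, which sets the sign of each mean difference. The genes with the higher values were the shallower ones. According to the paper, the authors' filter asks more of shallow windows, which need a stronger editing signal than deep ones to be called. The part of depth and of this filter in the order of the genes was not tested. The median mean depth of a gene's clusters was 795 in ACTG1, 984 in PFN1, 882 in TMSB10, 671 in CFL1 and 653 in ACTB. It was 137 in TPM3, 62.7 in TPM4 and 29.5 in TPM1. The PFN1 median is the depth of an intronic cluster of replicate 2, where depth does not count the same reads as covered C bases. The exonic clusters of PFN1 ran from a depth of 9.65 to 1710. In the alpha-actinins, a few reads set the value: ACTN4 had 10 edited of 653 covered C bases in replicate 1 and 2 of 211 in replicate 2, and ACTN1 had 9 of 370 in replicate 2 and 1 of 14 in replicate 3.

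**Figure D2:**
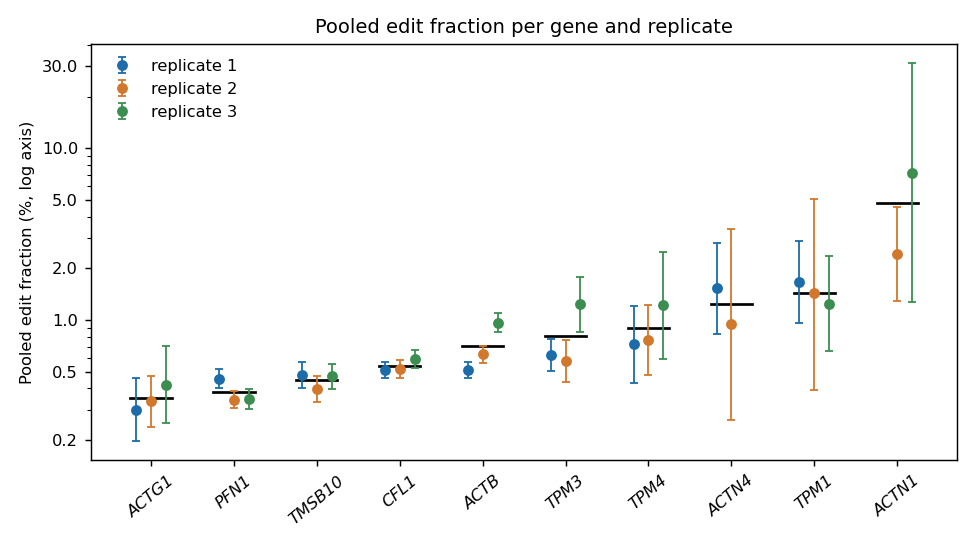
Pooled edit fraction (percent, log axis) of each gene in each replicate, with Wilson 95% intervals as bars on the points and the mean of the replicates as a black line. ACTG1, PFN1, TMSB10 and CFL1 lie between 0.300% and 0.594%, and the widest interval is that of ACTN1 in replicate 3, which reaches 31.5%.

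The cytoplasmic actins encode almost the same protein, and ACTB had the higher edit fraction in 3 of 3 replicates. In ACTB, 13 clusters were called, 4, 5 and 4 in replicates 1, 2 and 3, and the pooled edit fraction was 0.513%, 0.630% and 0.967%. ACTG1 had 4 clusters, 1, 2 and 1, with 0.300%, 0.336% and 0.421%. ACTB was above ACTG1 by 0.213, 0.294 and 0.546 percentage points, a mean of 0.351 ± 0.174 (SD, n = 3). The values of the genes do not overlap, and the exact two-sided sign-flip test gave p = 0.25, again the smallest possible. Their clusters were of like depth, from 315 to 979 in ACTB and from 439 to 969 in ACTG1. C bases made up 18.6% of the bases in ACTB clusters and 15.8% in ACTG1 clusters.

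Positions are on hg19, the build named in the submitters' processing notes, as the clusters give them. The exon numbers in the deposited names rise along the chromosome in all 1887 plus-strand and all 1814 minus-strand genes with clusters in several exons, so exon 0 of a minus-strand gene is the exon nearest its 3' end in the authors' annotation. Whether a cluster lies in coding sequence or UTR is not given in the names.

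ACTB is on the minus strand of chromosome 7, and its 13 clusters lie in exon 0, within 600 bases, from 5566782 to 5567382. Merged over replicates by an overlap of at least 1 base, they form 4 loci, and each of the 4 has clusters in all 3 replicates. The locus from 5567292 to 5567382, which has the most edited bases, was called with the same bounds in each replicate. It had 123 edited of 18746 covered C bases in replicate 1, 118 of 17120 in replicate 2 and 152 of 14456 in replicate 3, or 0.656% (Wilson 95% interval 0.550 to 0.782), 0.689% (0.576 to 0.825) and 1.05% (0.898 to 1.23). Replicate 3 had the highest edit fraction, with 2.05 edited bases per edited read against 1.37 and 1.53 in replicates 1 and 2. Counted by reads, 90 of 1470, 77 of 1341 and 74 of 1105 were edited, or 6.12% (5.01 to 7.47), 5.74% (4.62 to 7.12) and 6.70% (5.37 to 8.33). The intervals of the read shares overlap, so by reads a difference between replicates beyond counting error is not shown. By edited bases, the interval of replicate 3 lies above those of replicates 1 and 2. Those intervals treat edited bases on 1 read as separate, which makes them too narrow here.

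The other ACTB loci were less even in extent. From 5566872 to 5567007, replicate 1 had 1 cluster with 27 C bases at 0.367%, replicate 2 had 2 clusters with 12 C bases in all at 0.794%, and replicate 3 had 7 C bases at 1.30%. The edit fraction was higher where fewer C bases were called, while the share of edited reads was 3.01%, 2.77% and 3.45%. Within that stretch, the clusters from 5566932 to 5566992 in replicate 2 and to 5567007 in replicate 3 held 46 of 4017 and 55 of 4241 covered C bases, or 1.15% and 1.30%. These are the highest edit fractions of the 13 ACTB clusters, over 6 and 7 C bases. The locus from 5567127 to 5567262 had 0.582%, 0.516% and 0.942%, and that from 5566782 to 5566842 had 0.537%, 0.466% and 0.374%. At the last of these, replicate 3 was the lowest and its interval of 0.230 to 0.607 overlaps the others.

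In ACTG1, on the minus strand of chromosome 17, exon 0 also held all 4 clusters. The locus from 79477072 to 79477117 was called with the same bounds in each replicate, with 21, 15 and 14 edited bases over 6998, 4708 and 3326 covered C bases. Its edit fraction was 0.300%, 0.319% and 0.421%, and the intervals overlap. Edited reads made up 1.38%, 1.33% and 1.72% of its reads. A second stretch, from 79477492 to 79477522, was called in replicate 2 only, at 18 of 5122 covered C bases. The edit fractions of this ACTG1 locus with constant bounds lie below those of the ACTB locus with constant bounds, 0.656% to 1.05%, without overlap.

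**Figure D3:**
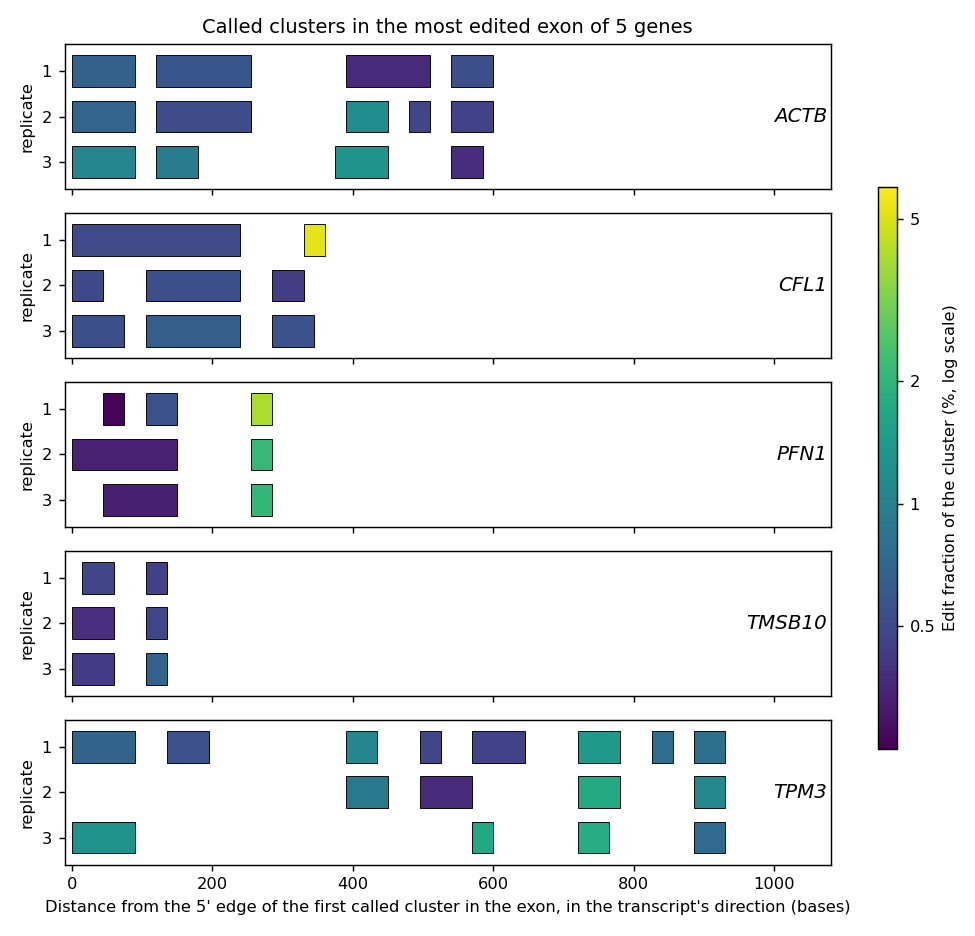
Called clusters in the exon with the most edited bases of ACTB, CFL1, PFN1, TMSB10 and TPM3, by replicate, drawn to scale as distance in bases from the 5' edge of the first called cluster in the direction of the transcript. The colour gives the edit fraction of the cluster (percent, log scale), and clusters of ACTB span 600 bases and those of TMSB10 135 bases.

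CFL1, on the minus strand of chromosome 11, has 8 clusters in exon 17, within 360 bases. The locus from 65622401 to 65622641 had 339, 238 and 257 edited bases over 66465, 45412 and 43079 covered C bases, the most edited bases of any locus in the 10 genes. Replicate 1 called it as 1 cluster of 240 bases, the longest of the 81, and replicates 2 and 3 as a pair of clusters each. Its edit fraction of 0.510%, 0.524% and 0.597% varied by less than its intervals, with a mean of 0.544% ± 0.0464 (SD, n = 3). Of its reads, 7.36%, 6.27% and 6.09% were edited. A second CFL1 locus, from 65622281 to 65622356, had 13 of 2938 covered C bases edited in replicate 2 and 17 of 3051 in replicate 3. In replicate 1 it rests on 1 edited read over 19 covered C bases, and that cluster overlaps the one of replicate 3 but not that of replicate 2.

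PFN1, on the minus strand of chromosome 17, had its main locus in exon 0, from 4849112 to 4849262. Edited bases numbered 209 of 48320 covered C bases in replicate 1, 282 of 83989 in replicate 2 and 210 of 63269 in replicate 3. The edit fraction was 0.433% in replicate 1 and 0.336% and 0.332% in replicates 2 and 3, where the clusters took in 56 and 46 C bases against 29 in replicate 1. A smaller locus, from 4848977 to 4849007, holds 1 C base in each replicate, so its edit fraction is that of 1 position. This C was edited 11 times of 272 in replicate 1, 6 of 286 in replicate 2 and 5 of 243 in replicate 3, or 4.04% (2.27 to 7.10), 2.10% (0.965 to 4.50) and 2.06% (0.882 to 4.73). The intervals overlap, and all 3 values lie above the 0.332% to 0.433% of the main locus. PFN1 also had both intronic clusters of the 10 genes, in intron 1, from 4849577 to 4849622 in replicate 1 and from 4849427 to 4849472 in replicate 2. Each has 2 edited bases, over 41 and 51 covered C bases, at a deposited mean depth of 1151 and 984, so the depth there does not count the same reads as the covered C bases. Intronic clusters make up 2.17%, 2.33% and 1.7% of all clusters. The last PFN1 clusters, in exon 4 of replicate 3 only, have a depth of 9.65 and 10.4.

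TMSB10, on the plus strand of chromosome 2, has 6 clusters in exon 4, from 85133603 to 85133738, and each was found in all 3 replicates. At the upstream locus, 102 of 21099, 106 of 27769 and 108 of 24757 covered C bases were edited, or 0.483%, 0.382% and 0.436%. The downstream locus, from 85133708 to 85133738, has the same bounds in each replicate and had 21 of 4607, 21 of 4244 and 27 of 3985. Its edit fraction of 0.456%, 0.495% and 0.678% varied by less than its intervals. C bases made up 33.3% of the bases in the TMSB10 clusters, the highest share of the 10 genes, against 14.3% in TPM3, the lowest.

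**Figure D4:**
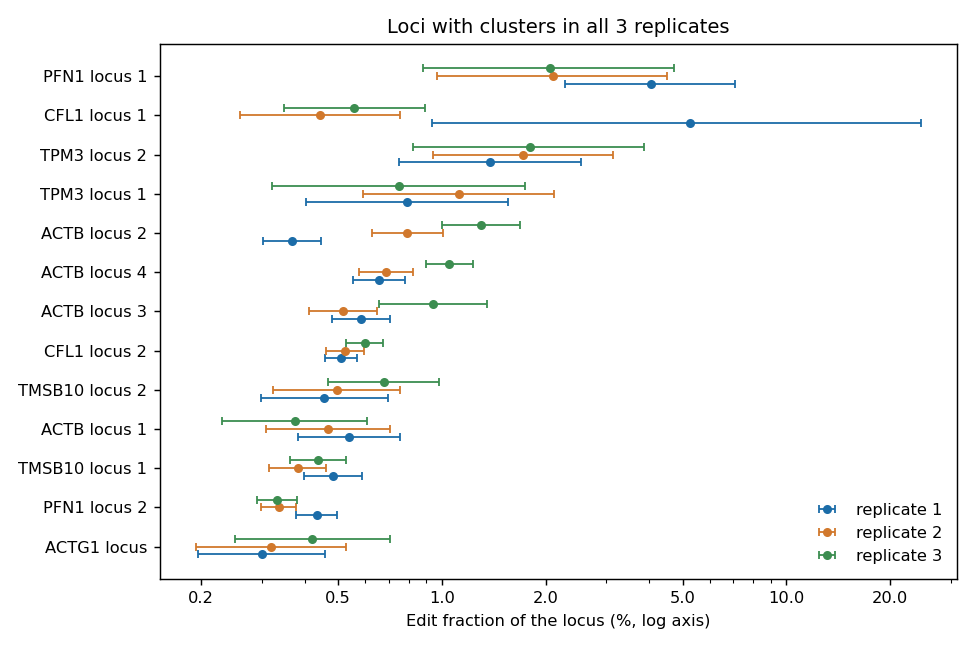
Edit fraction (percent, log axis) of the 13 loci that have clusters in all 3 replicates, with Wilson 95% intervals, 1 point per replicate, and loci of a gene numbered by rising position. The highest mean is that of the PFN1 locus with 1 C base, 2.73%, and the widest interval that of the first CFL1 locus in replicate 1, which rests on 19 covered C bases.

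Among the tropomyosins, TPM3 had the most clusters over the replicates together. It had 17, with 9, 4 and 4 in replicates 1, 2 and 3, and ranked 26, 801 and 407 of all genes by clusters. The lead over TPM1 and TPM4 lay mostly in replicate 1, and in replicate 2 TPM4 also had 4 clusters. Of the 17, 16 lie in exon 0, on the minus strand of chromosome 1 from 154128969 to 154129899. The locus from 154128969 to 154129014 had 8 of 1010, 9 of 802 and 5 of 668 covered C bases edited, or 0.792%, 1.12% and 0.749%. At the locus from 154129119 to 154129179, 10 of 723, 10 of 580 and 6 of 334 were edited, or 1.38%, 1.72% and 1.80%. Within either locus the intervals of the replicates overlap. A further 4 loci of TPM3 had clusters in 2 replicates.

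TPM4 and TPM1, both on a plus strand, had no cluster that was found in all 3 replicates. In TPM4, 7 of 8 clusters lie in exon 34, and the locus with the most edited bases, on chromosome 19 from 16213492 to 16213552, had 9 edited bases in replicate 1, 4 in replicate 2 and no cluster in replicate 3. The 8 clusters of TPM1 are spread over 4 exons of chromosome 15 across 14656 bases, with 2 clusters in each exon. Its most edited locus, from 63356318 to 63356378, had 3 edited bases in replicate 1 and 4 in replicate 3. A TPM1 cluster had a depth between 26.4 and 45.5 and at most 4 edited bases.

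The alpha-actinins had few clusters, with few edited bases in each. ACTN1, on chromosome 14, had 3 clusters in exon 0 and 1 in exon 54, at depths from 7.61 to 12.5, and the locus from 69341025 to 69341145 had 5 edited bases in 1 read of replicate 2 and 1 edited base in replicate 3. ACTN4, on chromosome 19, had 1 cluster in exon 48 of replicate 1, from 39220814 to 39220949, with 10 edited bases in 5 reads, and 1 cluster in exon 20 of replicate 2 with 2 edited bases.

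Of the 55 exonic clusters in minus-strand members, 43 lie in exon 0, or 16 of 19, 15 of 19 and 12 of 17 in replicates 1, 2 and 3. Over all minus-strand exonic clusters the share is 63.4%, 58.7% and 60.3%. The Wilson 95% intervals of the members' shares were 62.4% to 94.5%, 56.7% to 91.5% and 46.9% to 86.7%. They take in the shares over all such clusters, so the minus-strand members are not shown to differ in this. The intervals treat clusters of 1 gene as separate, and 8 of the clusters outside exon 0 are those of CFL1, in exon 17.

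Clusters of the 10 genes recurred between replicates. Of the clusters in replicates 1, 2 and 3, 13 of 29, 13 of 28 and 14 of 24 overlapped a cluster in each of the other replicates, a share of 49.9% ± 7.38 (SD, n = 3). Over all clusters the share is 10.6%, 9.86% and 13.1%. No overlap with either of the other replicates was seen for 7, 9 and 4 member clusters, against 68.7%, 69.7% and 64.4% of all clusters. With a depth of at least 50, 13 of 23, 13 of 23 and 14 of 17 member clusters recurred in this way, against 25.6%, 23.8% and 30.6% of all clusters that deep. The member clusters past 50 are deeper than the others, as given above, and the part of depth in this share was not tested. All 40 recurring clusters lie in ACTB with 12, PFN1 with 7, TMSB10, CFL1 and TPM3 with 6 each, and ACTG1 with 3.

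Where overlapping clusters of different replicates were joined, the 81 clusters made 42 loci. Of these, 13 have clusters in all 3 replicates (31.0%), against 4.77% of all 33244 loci. A further 9 have them in 2 replicates and 20 in 1 only (47.6%), against 83.4% of all loci. The 13 loci held 93.0% of the 10 genes' edited bases. Over all genes, loci with clusters in all 3 replicates held 46.5% of edited bases. Clusters of the 10 genes are deeper, as given above, and the part of depth in these shares was not tested. The edit fractions of the 13 loci, averaged over replicates, ran from 0.347% in ACTG1 to 2.73% at the PFN1 position, with a median of 0.680%. Across these 13 loci, Spearman's rho of the edit fraction was 0.544 between replicates 1 and 2, 0.462 between 1 and 3 and 0.901 between 2 and 3. The first CFL1 locus enters with 5.26% in replicate 1, from 1 edited of 19 covered C bases, against 0.442% and 0.557% in replicates 2 and 3. It was not left out, so the lower rho values of replicate 1 depend in part on 1 edited read. The 13 loci lie in 6 genes and are not separate draws, and their bounds differ between replicates at 8 of 13. The rho values therefore describe these loci only.

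Scores and edits per read are given without a depth limit. A score of at least 0.99 was reached by 24 of 29, 21 of 28 and 20 of 24 member clusters, against 60.8%, 60.1% and 61.2% of all clusters. All 13 clusters of ACTB and all 11 of PFN1 reached it, and 2 of 4 in ACTG1. Clusters with 1 edited read numbered 2, 2 and 3, against 28.0%, 31.1% and 33.0% of all clusters. The clusters of the 10 genes are deeper, as given above, and the part of depth in these shares was not tested. An edited read of the 10 genes carried 1.5 ± 0.0354 edited bases (SD, n = 3), and one of the other clusters 1.64 ± 0.0416. Summed over replicates, the number was 1.13 in ACTG1, 1.24 in TMSB10, 1.53 in ACTB, 1.54 in CFL1 and 1.60 in PFN1.

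Set beside the 5 genes whose covered C bases in clusters came nearest to those of ACTB, ACTB had a higher edit fraction than 4 of the 5. These were RPS15A and RPL5, which encode ribosomal proteins, TPT1, FTH1, a ferritin chain, and NPM1, a nucleolar protein. RPS15A had a pooled edit fraction of 0.253% ± 0.0297 (SD, n = 3), RPL5 0.320% ± 0.0607, TPT1 0.398% ± 0.0621 and FTH1 0.400% ± 0.0637. The ranges of these 4 genes lie below that of ACTB, which starts at 0.513%. NPM1, at 0.721% ± 0.0570, overlaps it. The 5 genes were chosen by their summed covered C bases alone, not by read depth. Their depths were not compared, and the differences were not tested.

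A list of 52 other actin cytoskeleton genes gives the surroundings. Of these, 35 had clusters in all 3 replicates, 6 in 2, 3 in 1 and 8 in none, against the 37.9% of all gene names with a cluster that have them in all 3. At least 1 cluster found in all 3 replicates was held by 17 of the 52, and by 12.9% of all gene names with a cluster. The mean edit fraction of the 35 ran from 0.349% in TAGLN2 to 4.27% in WASF1, with a median of 1.07%. WASF1 had 8.33% in replicate 2, from 1 cluster, against 2.47% and 1.99% in replicates 1 and 3.

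Of the Arp2/3 complex, which starts new filaments as branches, 8 of 9 genes had clusters in all 3 replicates, with mean edit fractions from 0.495% in ARPC1A to 1.07% in ARPC5L. ARPC1B had no cluster. All 3 genes of capping protein, which blocks filament ends, had clusters in every replicate, with 0.732% ± 0.107 (SD, n = 3) in CAPZA1. So had the 3 myosin light chain genes, with 0.387% ± 0.0837 in MYL6, 0.891% ± 0.0299 in MYL12A and 1.07% ± 0.149 in MYL12B. The genes of ezrin, radixin and moesin, which link filaments to the membrane, ran from 1.16% in MSN to 1.96% in RDX. The muscle genes ACTC1, ACTG2, ACTN2, ACTN3 and TPM2 had no cluster, nor had GSN and ZYX, and ACTA2 had clusters in replicates 2 and 3.

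Close relatives of the members were edited at higher fractions from shallower clusters. CFL2 had 0.893%, 1.58% and 1.32%, and destrin (DSTN), a cofilin relative, 1.03%, 0.869% and 1.53%, all above the 0.511%, 0.519% and 0.594% of CFL1. PFN2 had 0.569%, 0.906% and 0.923% against 0.456%, 0.344% and 0.347% in PFN1. TMSB4X had 0.945%, 0.650% and 1.03% against 0.478%, 0.397% and 0.470% in TMSB10. In each of the 4 pairs the relative was higher in 3 of 3 replicates, and the exact sign-flip test gave p = 0.25, the smallest possible. The relatives' median cluster depth was 46.4 in CFL2, 69.1 in DSTN, 87.8 in PFN2 and 99.1 in TMSB4X, and the part of depth in these differences was not tested. The pairs were formed after the values were seen.

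**Figure D5:**
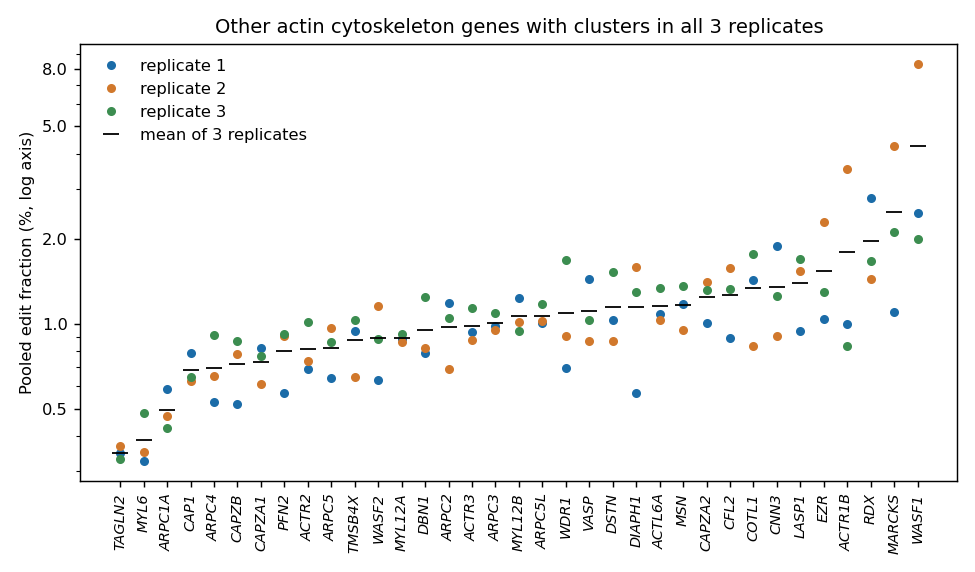
Pooled edit fraction (percent, log axis) of the 35 other actin cytoskeleton genes with clusters in all 3 replicates, 1 point per replicate, with the mean as a dash. TAGLN2 and MYL6 lie lowest, at means of 0.349% and 0.387%, and WASF1 highest, at 4.27% with a replicate at 8.33%.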

How the data were processed

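RNA editing was measured by RNA-seq in 3 biological replicates of 1 group. Per the labels, STAR and hg19 were used, with no version given. The authors called C-to-U positions with SAILOR, filtered 30-base windows with FLARE at an adjusted p-value of 0.1, joined windows up to 15 bases apart and gave each cluster a score, for each replicate alone. The deposited counts (C bases, covered C bases and edits among them, reads and edited reads) are unscaled. The authors' edit fraction equals edited over covered C bases (within 1e-09) in all 40843 clusters. The authors' mean read depth is an unscaled coverage signal. The score deposited by the authors lies between 0 and 1.

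Python 3.11.15 with NumPy 2.4.6, pandas 2.3.3 and SciPy 1.17.1 summed counts per gene and replicate and matched clusters that shared 1 base or more of the same strand. matplotlib 3.10.9 drew the plots. Means and SDs are over 3 replicates, intervals are Wilson 95%, and differences were tested with exact two-sided sign-flip permutation tests over replicates. The overlap search matched a brute-force search on simulated data for 100% of 510 clusters. The 10 genes and the lists were chosen with earlier results of these data known. Named are all 10 genes, in each the most edited locus and the loci in all 3 replicates at a depth of at least 50, the 5 genes nearest to ACTB in coverage, and listed genes with clusters in every replicate, with further list genes named for their counts. Alternatives were minimum scores of 0.95 and 0.99, depth limits, at least 2 edited reads, means for medians, the log2 scale, an overlap of 50% and leaving out each replicate. The RBFOX motif was not analysed here, because a genome of this build was not used.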

Additional observations from a re-analysis of the deposited data

How the results depend on the processing

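Of 58 alternative values of 8 results, 24 left out a replicate in turn. Only the differences, of the 10 genes from all other clusters and of ACTB from ACTG1, can change direction, and neither mean did. The other results are counts, shares and ratios, which cannot be negative. The pooled edit fraction of the 10 genes moved from 0.505% to 1.31% when the clusters' own edit fractions were averaged, which gives shallow clusters equal weight. The share of clusters found in all 3 replicates moved from 49.9% to 65.1% at a depth of at least 50 and to 37.3% with an overlap of at least 50%, and with each replicate left out in turn it was 57.9% to 72.3%, where only 2 replicates had to share a cluster. The share with a score of at least 0.99 moved from 80.4% to 87.9% at a depth of at least 50. The difference in median edit fraction from all other clusters, -0.192 percentage points, was -0.0958 with means, -0.0503 at a depth of at least 100, -0.297 at a minimum score of 0.99 and -0.930 without a depth limit. It was -0.164 with at least 50 covered C bases per C base in place of mean depth, an alternative chosen after seeing the data. ACTB exceeded ACTG1 by 0.351 percentage points in the main setting, by 0.254 to 0.420 with a replicate left out, and by 0.452 over clusters with the same bounds, also chosen after seeing the data. At a minimum score of 0.99 ACTG1 has no cluster in replicate 1, so that alternative gave no value. The tests cannot pass a threshold of 0.05 with 3 replicates, so their p-values say nothing about stability. Low counts limit the values of the tropomyosins TPM1 and TPM4 and the alpha-actinins, which rest on 38 edited bases or fewer per gene.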

Other observations

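Named gene copies of the members held 6 clusters, in copies of 2 of the 10 genes. TPM3P8, on the minus strand of chromosome 2, had 4 of them. These 4 are named as intronic, with no exon name, and also carry the gene name AC010149.4. From 231436750 to 231436780, replicates 2 and 3 each had 3 edited bases, over 417 and 365 covered C bases at mean depths of 67.5 and 56.8. The stretch starting at 231436630 had 4 of 605 covered C bases edited in replicate 1 and 9 of 647 in replicate 2. TPM3P6 and PFN1P1 had 1 cluster each, in replicate 2 only, with 6 of 92 and 3 of 244 covered C bases edited. Whether reads are shared between TPM3 or PFN1 and such copies was not tested.

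Coverage per C base, that is, covered C bases divided by the cluster's number of C bases, was close to the mean read depth in exonic clusters, with a median ratio of 0.996 over 39987 clusters, and lower in intronic ones, at 0.486 over 856. In the 79 exonic clusters of the 10 genes the median ratio was 1.01. It was under 0.5 in 7 of them, all in TPM1, TPM4, ACTN4 and the first CFL1 locus of replicate 1, and lowest in the ACTN4 cluster of replicate 2, at 0.218. In the intronic PFN1 clusters it was 0.00445 and 0.00576, so their edit fractions of 4.88% and 3.92% rest on about 5.13 and 5.67 covering reads per C base.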
